A study of Mus musculus with 8 samples.

Results

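The BCL2 family genes are 10 of the 24078 entries of a hippocampal gene count table, taken by exact match of the gene symbol: the anti-apoptotic Bcl2, Bcl2l1 and Mcl1, the effectors Bax, Bak1 and Bok, and the BH3-only genes Bcl2l11, Bid, Bad and Bbc3. Each symbol stood in 1 entry with no duplicate, and all 10 were among the 20478 genes that passed a filter on low counts. The samples were hippocampi of mice of the strain labelled Wfs1tm1Koks, which carries a mutated Wfs1 gene. The homozygous group held 4 animals (replicates 15, 16, 17 and 18) and the wild-type group 4 (replicates 7, 8, 9 and 10), with 1 library of total RNA, depleted of ribosomal RNA, from each. No drug or other treatment is named for either group, and neither is age, sex, litter or genetic background. The tissue was whole hippocampus, so fewer cells of a type and less RNA per cell cannot be told apart in any of the values. Wfs1 encodes wolframin, a membrane protein of the endoplasmic reticulum (ER), whose loss in people causes Wolfram syndrome. The comparison asks how transcripts of the family differ between hippocampi with and without intact Wfs1.

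Proteins of the BCL2 family decide whether a cell under stress opens its outer mitochondrial membrane and dies by apoptosis. Bax and Bak1 form the pores, BCL2, BCL-XL (the main product of Bcl2l1) and MCL1 hold them in check, and BH3-only proteins such as BIM (Bcl2l11), BID, BAD and PUMA (Bbc3) either block the protectors or activate the pore formers. BOK is another effector-like protein, which resides largely at the ER, where it binds inositol trisphosphate receptors. Neurons rely on BCL-XL and MCL1 for survival, and BIM and PUMA are the BH3-only genes best known for being induced at the transcript level.

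Of the 10 members, 3 fell, 1 rose and 6 were past the threshold in neither direction (quasi-likelihood test of edgeR, with p-values adjusted by Benjamini-Hochberg over all genes and a threshold of 0.05). The 3 that fell were Bok, Mcl1 and Bcl2l1, and the 1 that rose was Bcl2l11. Across all genes tested 41.1% were called, 20.7% higher and 20.3% lower, so that 4 of 10 is a share near the background and is no result about the family as a whole. The median log2 fold change of the members was 0.05, the same as that of all genes (0.05). Differences therefore stand gene by gene. Among the roles, 2 of 3 anti-apoptotic genes were lower, 1 of 3 effectors was lower, and 1 of 4 BH3-only genes was higher.

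The promoters of the 4 called members are shown because these are the members that differed between the genotypes. Each is the 250 bases before the outermost RefSeq start site, read 5′ to 3′ on the gene's strand (RefSeq, build GRCm38.p6). The windows lie at chr2:128125788-128126037 (plus strand, Bcl2l11), chr1:93685325-93685574 (plus strand, Bok), chr3:95658471-95658720 (plus strand, Mcl1) and chr2:152831729-152831978 (minus strand, Bcl2l1). Capitals mark matches, on either strand, to any of the motifs searched.
Bcl2l11: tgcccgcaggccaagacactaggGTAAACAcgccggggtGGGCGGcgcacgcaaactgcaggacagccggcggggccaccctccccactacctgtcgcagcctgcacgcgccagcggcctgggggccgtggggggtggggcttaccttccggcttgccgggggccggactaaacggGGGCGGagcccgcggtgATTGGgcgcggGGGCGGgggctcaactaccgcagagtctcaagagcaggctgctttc
Bok: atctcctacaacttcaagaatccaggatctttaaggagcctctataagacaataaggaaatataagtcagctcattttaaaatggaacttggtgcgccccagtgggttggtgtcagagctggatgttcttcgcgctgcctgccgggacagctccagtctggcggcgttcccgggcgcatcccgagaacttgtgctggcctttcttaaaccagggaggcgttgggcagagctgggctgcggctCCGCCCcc
Mcl1: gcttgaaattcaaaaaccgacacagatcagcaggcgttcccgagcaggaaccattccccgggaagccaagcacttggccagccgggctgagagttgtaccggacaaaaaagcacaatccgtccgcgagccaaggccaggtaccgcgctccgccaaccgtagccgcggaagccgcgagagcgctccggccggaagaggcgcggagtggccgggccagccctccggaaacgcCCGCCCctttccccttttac
Bcl2l1: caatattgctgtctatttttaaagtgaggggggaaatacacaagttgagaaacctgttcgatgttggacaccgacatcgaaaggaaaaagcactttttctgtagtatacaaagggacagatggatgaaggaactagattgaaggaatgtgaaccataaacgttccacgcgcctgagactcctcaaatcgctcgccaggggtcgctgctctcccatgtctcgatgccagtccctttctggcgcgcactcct

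The motifs searched were the GC box GGGCGG, the CCAAT box CCAAT, the FOXO element GTAAACA, the cAMP response element TGACGTCA, the C/EBP-ATF element TGATGCAA, the unfolded protein response element core TGACGTG, the E-box CACGTG and the p53 half-site. Both strands were searched, and matches of different motifs were allowed to overlap. All 10 members had an entry among the RefSeq promoters. The Bcl2l11 promoter held 3 GC boxes, a CCAAT box 57 bases before the start (first base of the match in the strand shown) and a FOXO element 227 bases before it. GC boxes were found in 33% of the 27026 promoters of this length, CCAAT boxes in 34.5% and FOXO elements in 3.06%. The Bok and Mcl1 promoters held 1 GC box each, at 8 and 20 bases before the start, and the Bcl2l1 promoter held none of the motifs. GC content was 72% for Bcl2l11, 64.4% for Mcl1, 55.2% for Bok and 47.6% for Bcl2l1, where the median promoter had 52%. Among the other members, Bax carried a p53 half-site 201 bases before its start, a motif present in 7.16% of promoters, and an E-box, present in 6.04%. Letters that match a motif describe the sequence only and say nothing about binding.

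Bcl2l11, which encodes the BH3-only activator BIM, was the member that rose. It was counted at 26.9, 31.8, 23.4 and 26.8 CPM (counts scaled to library size with TMM factors) in wild-type animals 7, 8, 9 and 10, whereas homozygous animals 15, 16, 17 and 18 had 56.2, 138, 40.4 and 47.4 CPM. Every homozygous library lay above every wild-type library, and replicate 16 stood far above the other homozygous libraries. The means were 27.2 ± 3.46 and 70.6 ± 45.7 CPM (± SD of 4 libraries), and homozygous exceeded wild-type by 1.38 on the log2 scale (SE 0.34; 2.6-fold, 95% interval 1.56 to 4.35; adjusted p 0.00792, edgeR). Without homozygous replicate 16 the homozygous mean was 48.0 ± 7.92 CPM, and the log2 fold change was 0.83 (SE 0.15, adjusted p 0.00196 in edgeR). The call held without that library, and the rise was smaller. Its log2 fold change exceeded that of 96.4% of all genes tested.

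The other BH3-only members did not pass the test. Bbc3, which encodes the p53-inducible activator PUMA, gave 20.1, 11.8, 14.1 and 13.4 CPM in the wild-type libraries, in the order of their numbers, and 20.4, 38.2, 14.7 and 14.9 CPM in the homozygous ones. Its homozygous mean rested on replicate 16, which was also the highest for Bcl2l11, and the remaining 3 homozygous libraries lay within or just above the wild-type range. The log2 fold change was 0.56 (SE 0.30, adjusted p 0.151 in edgeR) and 0.17 without replicate 16. Replicate 16 was at least 2-fold above the next homozygous library for 304 genes (1.48% of those tested), against 31 to 129 genes for the other homozygous libraries. By the same measure within its own group, wild-type replicate 8 had 213 genes (1.04%) and the other wild-type libraries 8 to 10. The oligodendrocyte precursor marker Cspg4 was at 1445 CPM in that library and at 80.7 to 486 CPM in the other homozygous libraries, whereas Pdgfra (65.7 CPM) and Gpr17 (40 CPM), markers of the same cells, stood near their other values. What sets replicate 16 apart was not tested.

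Bid links death receptors to mitochondria once its protein is cleaved, and Bad is held inactive by phosphorylation under growth factor signalling. Bid was at 16, 9.46, 20 and 17 CPM in wild-type and 16.9, 17.1, 15 and 17 CPM in homozygous replicates, in the same order. Bad was at 8.12, 11.2, 12 and 12.8 CPM in wild-type and 13.6, 8.69, 11 and 12 CPM in homozygous replicates. The groups overlapped for both genes. The log2 fold change was 0.05 (SE 0.20) for each, with 95% intervals for the fold of 0.766 to 1.4 for Bid and 0.765 to 1.4 for Bad. The data are compatible with changes anywhere within these intervals. Both genes share exon sequence with an opposite-strand neighbour: 628 bp (17.7%) of Bid exon with Bcl2l13, which stood at 88.2 ± 1.63 CPM in wild-type, and 524 bp (20.5%) of Bad exon with Gpr137, which was at 81.0 ± 9.58 CPM and fell (log2 fold change -0.78, SE 0.17, adjusted p 0.00476 in edgeR). Whether the counting used strand is not known from the labels, so the counts of each pair cannot be told apart with certainty.

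**Figure D1:**
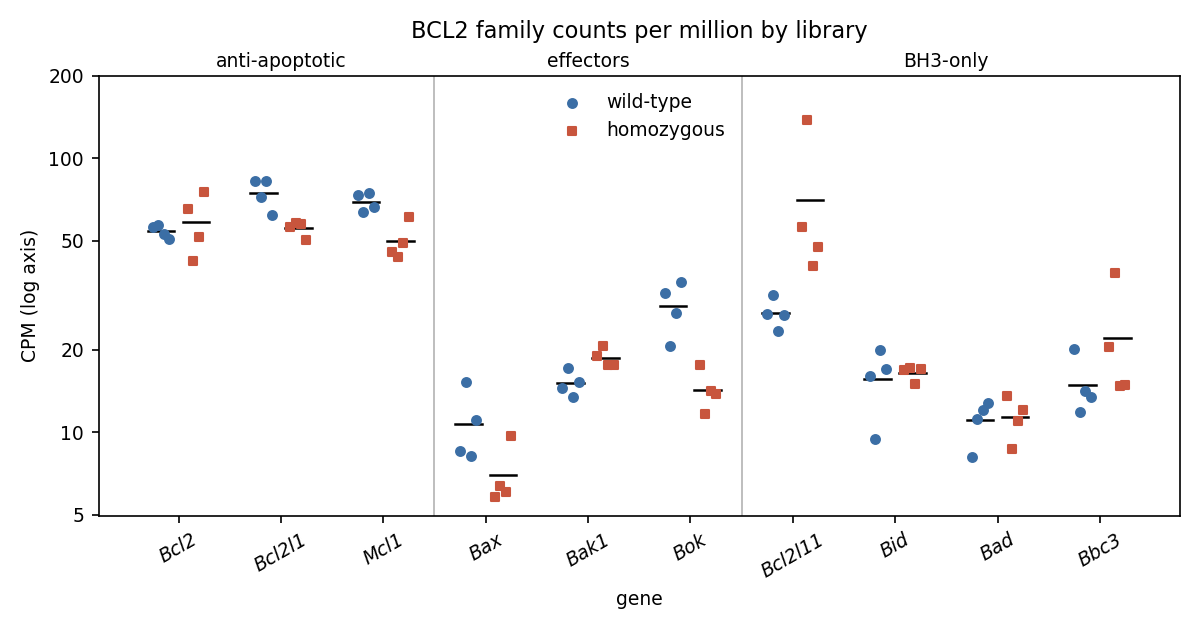
CPM of each BCL2 family gene on a log axis, with 1 point per library, blue circles for wild-type and red squares for homozygous (4 each), and a bar at each mean. Bcl2l11 lies higher in all 4 homozygous libraries, with replicate 16 at 138 CPM, and Bok, Mcl1 and Bcl2l1 lie lower in all 4.

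Among the effectors, Bok fell. Wild-type replicates 7, 8, 9 and 10 had 32.3, 20.6, 27.2 and 35.2 CPM, and homozygous replicates 15, 16, 17 and 18 had 17.6, 11.6, 14.1 and 13.8 CPM. All homozygous values lay below all wild-type values, the closest pair being homozygous replicate 15 and wild-type replicate 8. The means were 28.8 ± 6.4 and 14.3 ± 2.49 CPM, a difference of -1.01 on the log2 scale (SE 0.19; 0.497-fold, 95% interval 0.372 to 0.665; adjusted p 0.00214, edgeR). Only 4.24% of genes tested had a lower log2 fold change. Bok is also known as a marker of CA3 pyramidal neurons. It was the only member to be called lower in all 16 alternatives, leave-one-out fits included, with log2 fold changes of -1.14 to -0.81.

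Bax and Bak1, the canonical pore formers, had log2 fold changes of opposite sign, and neither passed. Bax had the fewest counts of the family, 21 to 53 in each of the 8 libraries, and at 21 counts the counting error alone is 21.8%. Its values were 8.54, 15.2, 8.16 and 11.1 CPM in wild-type and 5.81, 6.37, 6.05 and 9.66 CPM in homozygous replicates, and the groups overlapped through homozygous replicate 18. The log2 fold change was -0.60 (SE 0.25, adjusted p 0.0739 in edgeR), and -0.80 with an adjusted p of 0.0315 when replicate 18 was left out. Within the annotation 192 bp (12.2%) of Bax exon is shared on the same strand with Gm45808. Bak1 was at 14.5, 17.2, 13.4 and 15.3 CPM in wild-type and 19, 20.6, 17.6 and 17.6 CPM in homozygous replicates. The Bak1 groups did not overlap, and the log2 fold change of 0.32 (SE 0.14) missed the threshold with an adjusted p of 0.0932 in edgeR. Bak1 shares exon sequence with the opposite-strand gene Ggnbp1, which rose (log2 fold change 0.64, SE 0.18, adjusted p 0.0171 in edgeR). How far Ggnbp1 reads enter the Bak1 count was not tested.

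The anti-apoptotic genes Mcl1 and Bcl2l1 were lower by similar amounts. MCL1 is a short-lived protein whose level depends on continued synthesis. Mcl1 was at 73.1, 63.5, 74.4 and 66.5 CPM in wild-type and 45.6, 43.7, 49 and 61.2 CPM in homozygous replicates. The groups were separate, homozygous replicate 18 coming closest to wild-type replicate 8. The Mcl1 means were 69.4 ± 5.19 and 49.9 ± 7.84 CPM, 0.717-fold in homozygous (log2 -0.48, SE 0.13, adjusted p 0.0143 in edgeR). Bcl2l1, the main neuronal survival gene of the family, was at 82.7, 72, 82.8 and 61.9 CPM in wild-type and 56.2, 58.2, 57.7 and 50.3 CPM in homozygous replicates. Its groups were separate too, the nearest libraries being wild-type replicate 10 and homozygous replicate 16. The Bcl2l1 means were 74.8 ± 10.0 and 55.6 ± 3.61 CPM, 0.742-fold in homozygous (log2 -0.43, SE 0.13, adjusted p 0.0201 in edgeR).

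Both calls were small and depended on how libraries were scaled. With library totals as the only scaling, Mcl1 was -0.28 (adjusted p 0.0967 in edgeR) and Bcl2l1 -0.23 (adjusted p 0.167), while the median of all genes moved from 0.05 to 0.25. With the dependence of fold changes on abundance (the abundance trend) removed by a loess curve they were -0.34 (adjusted p 0.0579) and -0.26 (adjusted p 0.116), and with that on counts per exon length (the length-scaled trend) removed likewise -0.14 (adjusted p 0.405) and -0.17 (adjusted p 0.313), all in edgeR. Bcl2l1 was also not called without wild-type replicate 7 (adjusted p 0.0649) or wild-type replicate 9 (adjusted p 0.0648). Bcl2l11 and Bok remained called, in the same direction, in each of these settings.

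Bcl2, the founding member, did not pass. Wild-type libraries had 56.2, 56.8, 52.8 and 50.5 CPM, and homozygous libraries 65, 42, 51.6 and 75.5 CPM. Homozygous libraries lay on both sides of the narrow wild-type range, with a coefficient of variation of 25.2% against 5.44%. The log2 fold change was 0.12 (SE 0.17, adjusted p 0.595 in edgeR), with a 95% interval for the fold of 0.841 to 1.4. The ratio of Bax to Bcl2 counts, which is free of library scaling, was 0.152, 0.268, 0.155 and 0.22 in wild-type and 0.0894, 0.152, 0.117 and 0.128 in homozygous replicates. Its mean was 0.199 ± 0.0558 in wild-type and 0.122 ± 0.0258 in homozygous libraries (SD, n = 4 each), and the groups touched at homozygous replicate 16 and wild-type replicate 7.

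**Figure D2:**
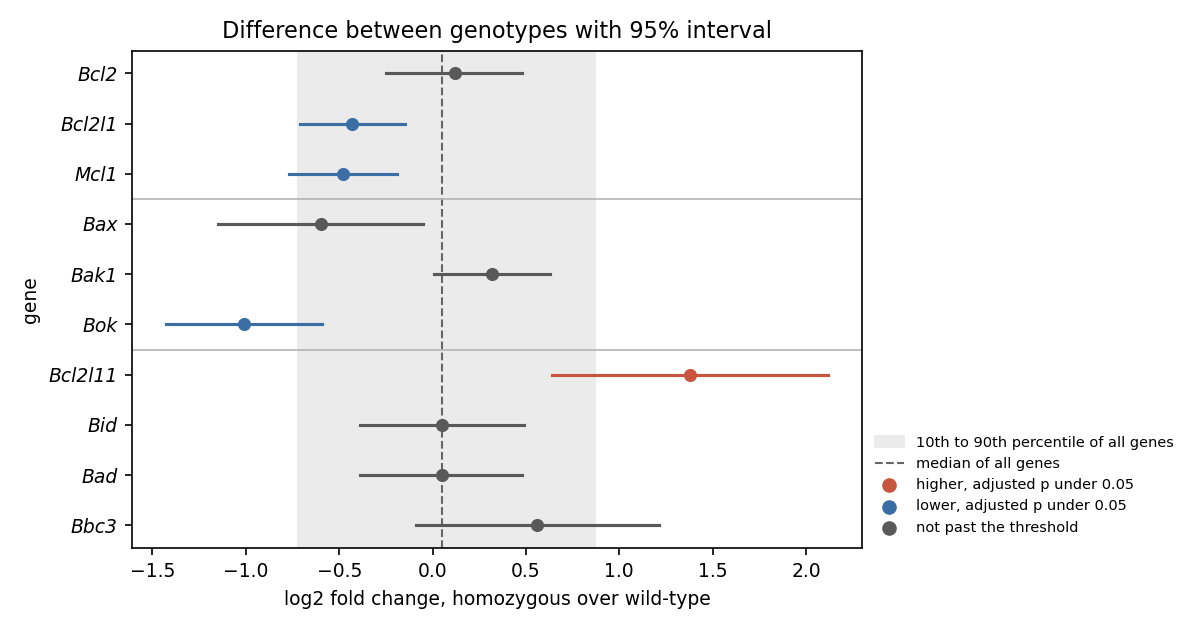
Log2 fold change of each member, homozygous over wild-type, with its 95% interval, blue where lower and red where higher at an adjusted p under 0.05, and grey otherwise. The shaded band runs from the 10th to the 90th percentile of all genes (-0.72 to 0.87), and only Bok (-1.01) and Bcl2l11 (1.38) lie outside it.

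Groups without overlap were found for 5 of the 10 members (Bok, Mcl1, Bcl2l1, Bcl2l11 and Bak1), against 37.6% of all genes tested. The lowest count behind any of these values was 40 counts for Bok, 51 for Bak1, 94 for Bcl2l11, 151 for Mcl1 and 172 for Bcl2l1.

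Levels of different members were compared per kilobase of exon, using the union of all annotated exons in GENCODE M21. In wild-type hippocampus Mcl1 was highest at 20.3 ± 1.52 CPM per kilobase, followed by Bcl2l1 at 16.3 ± 2.19 and Bok at 15.7 ± 3.48, whose ranges overlapped. Bbc3, Bax, Bak1, Bcl2, Bid, Bad and Bcl2l11 followed, from 6.99 ± 1.70 down to 3.39 ± 0.431 CPM per kilobase. No Bok library overlapped any Bbc3 library, and each later neighbour in the order overlapped the next. In homozygous hippocampus Mcl1 (14.6 ± 2.29) and Bcl2l1 (12.1 ± 0.786) kept the first places. Bcl2l11 had rank 4 (8.79 ± 5.69) against rank 10 in wild-type, and Bok rank 6 (7.75 ± 1.36) against rank 3, in both cases among neighbours whose ranges overlapped. Without homozygous replicate 16, Bcl2l11 had rank 7 and Bok rank 3.

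These levels were set beside 137 genes of the Mrgpr, Cyp2, taste receptor and keratin families, all with little known role in hippocampus, a set taken over from earlier work on the same data. From the 10th to the 90th percentile they spanned 1.69 to 7.59 CPM per kilobase in wild-type and, in homozygous hippocampus, 2.18 to 8.38. Bcl2, Bax, Bak1, Bid and Bad had means within it in both genotypes. The mean of Bok was above it in wild-type and within it in homozygous libraries. Bcl2l11 and Bbc3 had means within it in wild-type and above it in homozygous libraries, and the latter rested on replicate 16: without that library the homozygous means were 5.98 ± 0.987 and 7.86 ± 1.53 CPM per kilobase, within a range of 2.1 to 8.81 for the reference genes. Mcl1 and Bcl2l1 were above the range in both. Of the 137 genes 32 rose and 7 fell, against 20.7% and 20.3% of all genes. Their median log2 fold change was 0.37, against 0.05 for all genes. How much of a count at that level comes from the spliced transcript was not tested.

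**Figure D3:**
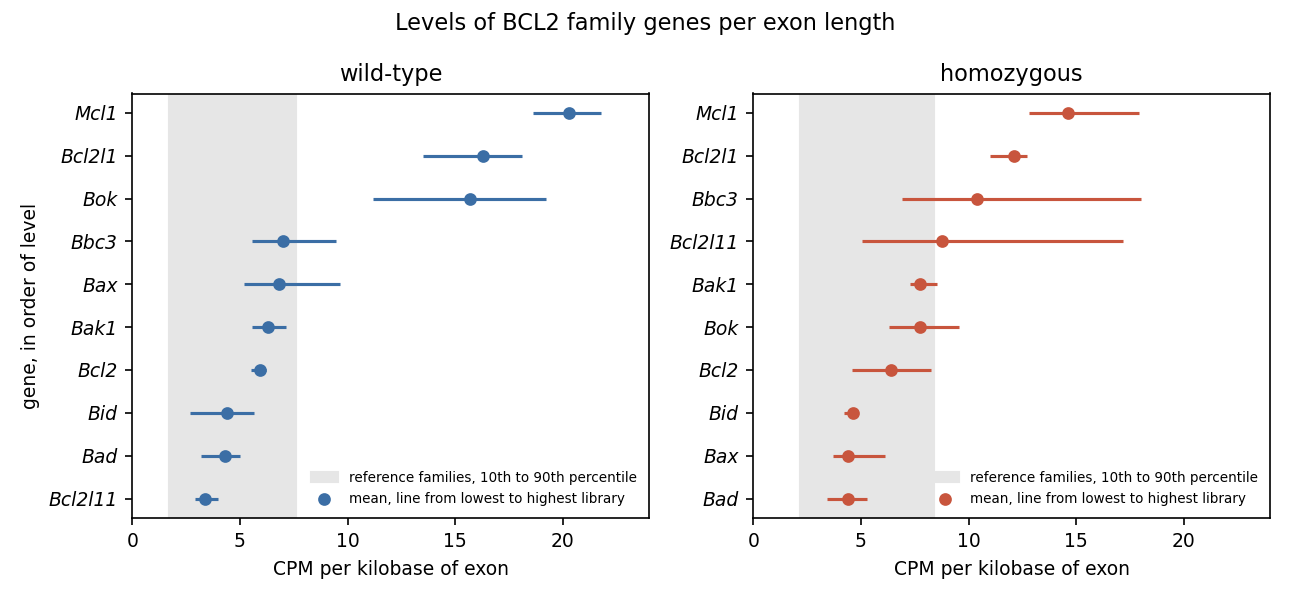
CPM per kilobase of exon of each member in wild-type (left) and homozygous (right) hippocampus, ordered by level; points are means of 4 libraries and lines run from the lowest to the highest. The grey band is the 10th to 90th percentile of 137 genes of families with little known role in hippocampus, and Mcl1 and Bcl2l1 lie beyond it in both genotypes.

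The genes whose profile over the 8 libraries was most like that of a member were listed for the 3 members with the largest absolute log2 fold change. For Bcl2l11 they were Cenph (Pearson r 0.996), a kinetochore gene, Aifm2 (0.993), a coenzyme Q oxidoreductase gene, and AU015836 (0.989). For Bok they were Aars2 (0.983), Galntl4 (0.983) and Bhlhe22 (0.979), and for Bax they were Mrpl53 (0.982), Gnl3 (0.965) and Eif2a (0.964). These values are descriptions over 8 libraries of 2 genotypes, among 18273 genes, of which 781 had an r above 0.9 with Bcl2l11, 457 with Bok and 62 with Bax. The closeness of the Bcl2l11 profiles includes the high value of homozygous replicate 16.

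Further BCL2 family genes outside the 10 were followed from a fixed list of 15, of which 12 were tested and Bcl2a1a, Bcl2a1b and Bcl2a1d were removed as low. Of the 12, 5 passed in neither direction, and the median log2 fold change was -0.01. The list had 4 that rose and 3 that fell, against 20.7% and 20.3% of all genes. Those that rose included the BH3-only genes Pmaip1, Bmf and Bik. Pmaip1 encodes NOXA, the BH3-only protein that binds MCL1. It was at 15.8, 18.9, 17.6 and 20.6 CPM in wild-type and 47.2, 44.3, 54.8 and 42.7 CPM in homozygous replicates, and the lowest homozygous value lay well above the highest wild-type value. Its log2 fold change of 1.38 (SE 0.13, adjusted p 5.06e-05 in edgeR) matched that of Bcl2l11 with a smaller spread, and lay between 1.29 and 1.57 in all 16 alternatives. Bmf, a BH3-only gene tied to the cytoskeleton, rose from 20.6 ± 1.5 to 34.2 ± 4.41 CPM (log2 0.72, SE 0.14, adjusted p 0.00206 in edgeR). Bik, an ER-located BH3-only gene named after its values were seen, rose from 2.08 ± 0.958 to 4.14 ± 1.33 CPM (adjusted p 0.0261 in edgeR), with overlapping groups, and was not called with either trend removed. Hrk, a neuronal BH3-only gene, stood at 80.6 ± 5.96 and 80.5 ± 12.5 CPM. Bcl2l14 rose too (log2 fold change 1.25, SE 0.21, adjusted p 0.00104 in edgeR).

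The genes of that list that fell were Bcl2l2, Bnip3 and Bnip3l, the last 2 named after their values were seen. Bcl2l2 encodes BCL-W, an anti-apoptotic protein abundant in brain, and went from 130, 119, 132 and 120 CPM in wild-type to 80.8, 77.3, 86.5 and 85.8 CPM in homozygous replicates. The groups were well apart, and the log2 fold change was -0.60 (SE 0.11, adjusted p 0.00174 in edgeR). It remained called with library totals (-0.40) and with the abundance trend removed (-0.31), and was not called with the length-scaled trend removed (-0.15). Bnip3 (-0.67, adjusted p 0.00398) and Bnip3l (-0.40, adjusted p 0.0218), which encode mitophagy receptors, fell as well in edgeR. Bnip3 was not called with the length-scaled trend removed (-0.19), and Bnip3l was called neither with library totals (-0.21) nor with the abundance (-0.12) or length-scaled (0.08) trend removed.

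Of 10 transcription factors that induce BH3-only genes, 2 rose and 3 fell (median 0.19), shares near those of all genes (20.7% and 20.3%). Foxo1, a forkhead factor, rose from 55.1 ± 2.48 to 79.8 ± 12.8 CPM (log2 0.53, SE 0.13, adjusted p 0.00875 in edgeR), and Trp63, named after its values were seen, rose with 0.47 (adjusted p 0.0249; not called with the length-scaled trend removed). Foxo3, the forkhead factor best known as an activator of Bcl2l11, fell from 24.6 ± 3.64 to 17 ± 2.72 CPM (-0.53, SE 0.16, adjusted p 0.0228 in edgeR). The Foxo3 call ended without wild-type replicate 7, 9 or 10 or homozygous replicate 18 (adjusted p 0.052, 0.0593, 0.0668 and 0.0514) and with library totals (-0.33, adjusted p 0.146). The ER stress factor Atf4 (-0.74, SE 0.19, adjusted p 0.0111) and the AP-1 factor Jun (-0.74, SE 0.21, adjusted p 0.0168) fell in edgeR. With the length-scaled trend removed neither was called (Atf4 -0.28, adjusted p 0.246; Jun -0.45, adjusted p 0.113), and Jun was not called with library totals (adjusted p 0.0673). Ddit3, which encodes the ER stress factor CHOP, had 7.61 ± 1.34 and 8.56 ± 3.32 CPM (adjusted p 0.626 in edgeR), and Trp53 had 34.3 ± 3.77 and 40.1 ± 4.10 CPM (adjusted p 0.179).

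Of 10 targets of p53, 3 rose and 2 fell (median 0.07), against 20.7% higher and 20.3% lower among all genes. These counts are no result about p53 targets as a set. Tnfrsf10b, the gene of the mouse TRAIL death receptor, had 15, 16.9, 13.3 and 19.5 CPM in wild-type and 59.7, 34.5, 49.9 and 73.2 CPM in homozygous replicates, with no overlap. Its log2 fold change was 1.76 (SE 0.22, adjusted p 0.000223 in edgeR). Phlda3, an inhibitor of AKT signalling, rose from 11.9 ± 1.92 to 32.4 ± 15.8 CPM (1.43, SE 0.29, adjusted p 0.00324 in edgeR), and the cell cycle inhibitor gene Cdkn1a rose from 21.9 ± 3.09 to 35.1 ± 6.25 CPM (0.68, SE 0.16, adjusted p 0.00648). Aen, a p53-induced nuclease gene, fell (-0.62, SE 0.15, adjusted p 0.00825 in edgeR), as did Ccng1 (-0.41, adjusted p 0.0298), named after its values were seen and not called with library totals or with either trend removed. Mdm2, which encodes the ligase that degrades p53, had 32.3 ± 6.95 and 34.2 ± 4.72 CPM.

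In the death receptor arm 3 of 7 rose and 1 fell (median 0.53), against 20.7% higher and 20.3% lower among all genes. Besides Tnfrsf10b, the adaptor gene Fadd rose from 17.7 ± 2.99 to 34.8 ± 15.9 CPM (0.99, SE 0.27, adjusted p 0.0131 in edgeR), and was 0.65 (adjusted p 0.0166) without homozygous replicate 16. The kinase gene Ripk1 rose with 0.53 (SE 0.15, adjusted p 0.0138; 0.36 and adjusted p 0.0693 with the length-scaled trend removed). Tradd, the adaptor of the TNF receptor, fell from 29.9 ± 16.4 to 5.94 ± 0.683 CPM (-2.29, SE 0.38, adjusted p 0.00105 in edgeR).

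In the list of apoptosome and caspase genes, which includes Casp2, Casp8 and Casp12, 4 of 13 fell and 0 rose in edgeR (median -0.26). Among all genes 20.3% fell and 20.7% rose. Of the 13, 1 was higher at an unadjusted p under 0.05, 0 in DESeq2, 1 in limma-voom and 2 with library totals. The 4 that fell were genes of proteins released from mitochondria. Cycs, which encodes cytochrome c, went from 77.5 ± 8.54 to 52.5 ± 7.10 CPM (-0.57, adjusted p 0.00759 in edgeR). The others were Htra2 (-0.87, adjusted p 0.00762), Aifm1 (-0.73, adjusted p 0.00615) and Endog (-0.68, adjusted p 0.0356). Diablo, another such gene of the list, named after its values were seen, did not pass. It had 12.5 ± 2.25 and 12.2 ± 2.67 CPM (-0.06, adjusted p 0.814 in edgeR). The Cycs call ended with the length-scaled trend removed (-0.19, adjusted p 0.263). The Endog call ended with library totals (adjusted p 0.106), in DESeq2 (adjusted p 0.052), and without wild-type replicate 7, 8 or 9 or homozygous replicate 15 or 18 (adjusted p 0.058 to 0.117 in edgeR). The initiator caspase gene Casp9 did not pass and had 97.7 ± 12.9 and 82.2 ± 20.9 CPM. Apaf1, the apoptosome scaffold, had 48.0 ± 6.18 and 69.5 ± 22.2 CPM (0.53, adjusted p 0.0577 in edgeR). A list named for caspase inhibitors held 9 genes: Xiap, Birc2, Birc3, Birc5, Birc6, Naip1, Naip2, Naip5 and Naip6 (median 0.30). Whether the products of the Naip genes act as caspase inhibitors here was not tested. Only Birc6 passed, and it fell (-0.52, SE 0.13, adjusted p 0.0082 in edgeR). With the abundance trend removed Birc6 was -0.01, and it was not called with library totals. None of the 9 was higher in edgeR, also at an unadjusted p under 0.05, or in DESeq2, whereas limma-voom called 2 higher and library totals 5. The 5 were Birc3, Birc5, Naip2, Naip5 and Naip6.

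Of 10 partners of BCL2 proteins at mitochondria, 7 were lower and 0 higher in edgeR. Across all genes tested 20.3% were lower and 20.7% higher, the shares to set beside each list count of this paragraph. Of the mitochondrial partners 0 were higher also at an unadjusted p under 0.05, in DESeq2 and in limma-voom. Their median of -0.59 became -0.32 with the abundance trend removed and -0.24 with the length-scaled trend removed. The channel genes Vdac1, Vdac2 and Vdac3 were -0.81, -0.57 and -0.67, with adjusted p of 0.00142, 0.0023 and 0.00451 in edgeR, and Mtch2, which encodes the mitochondrial receptor of truncated BID, was -0.95 (adjusted p 0.00295). With the length-scaled trend removed Mtch2 was still called (-1.12) and the 3 Vdac genes were not. Of 9 genes listed as ER partners, with Bag1 and Bag6 included whether or not they act there, 3 fell and 1 rose. Their median was -0.22, or 0.03 with the abundance trend removed. Bcap31, an ER partner of BCL2 proteins, fell from 27.5 ± 3.73 to 14.9 ± 0.684 CPM (-0.90, SE 0.14, adjusted p 0.000794 in edgeR), and Tmbim6 (BAX inhibitor 1) and Bag1 fell as well (-0.82 and -0.72). Neither Tmbim6 (-0.29, adjusted p 0.0954) nor Bag1 (-0.23, adjusted p 0.259) was called with the length-scaled trend removed. Itpr2, an inositol trisphosphate receptor of the kind that BOK and BCL2 bind, rose from 58.4 ± 5.99 to 105 ± 42.4 CPM (0.85, SE 0.23, adjusted p 0.0133 in edgeR), and was 0.53 (adjusted p 0.0169) without homozygous replicate 18. Kinases, phosphatases, ubiquitin enzymes and 14-3-3 proteins acting on BCL2 family members had 11 of 13 lower and 0 higher in edgeR (median -0.51; 0 higher also at an unadjusted p under 0.05, in DESeq2 and in limma-voom), led by the 14-3-3 gene Ywhaz (-0.88), the kinase gene Mapk9 (-0.76), and Ywhab (-0.60) and Ywhae (-0.73). These transcripts were abundant: with the abundance trend removed the median was -0.05, and Mapk9 was the only 1 of those 4 still called (-0.47).

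**Figure D4:**
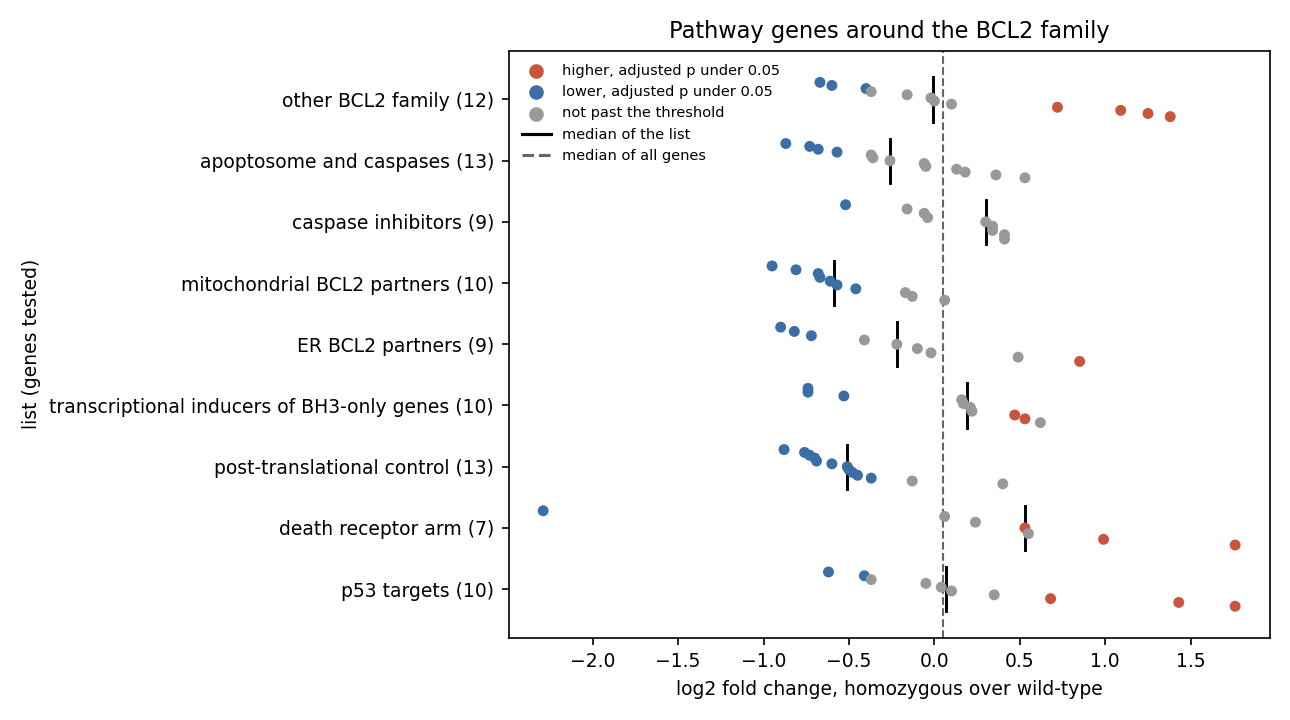
Log2 fold change of each tested gene (points) in 9 lists around the BCL2 family, red where higher and blue where lower at an adjusted p under 0.05, grey otherwise; a black bar marks each list's median and the dashed line the median of all genes (0.05). The lists of mitochondrial partners and post-translational control lie lowest (medians -0.59 and -0.51), and Pmaip1 (1.38) and Tnfrsf10b (1.76) are the highest points of their lists.

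Counted once each, 12 of the 92 pathway genes rose (13%, against 20.7% of all genes), 35 fell (38%, against 20.3%) and 45 passed in neither direction. With the length-scaled trend removed 12 were lower, against 3057 of the 20125 genes tested in that setting. The excess of lower genes in the main test was thus not seen there. It was smaller but still present in 2 other settings. With library totals 23 of the 92 were lower, against 2423 of 20478 genes. With the abundance trend removed 21 were lower, against 3347 of 20478. Of the 10 named pathway genes that rose, 9 lay in wild-type within the range of the 137 reference genes per kilobase, and Bcl2l14, Bmf, Itpr2 and Ripk1 lay within it in both genotypes. Of the 22 named that fell, Htra2, Endog, Foxo3 and Aen did so in both.

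Library totals ran from 3250949 to 6747411 counts, and Wfs1 itself was lower in all 4 homozygous libraries (12 to 17.7 CPM against 44.5 to 61.1). Of 42 cell type markers looked at, 41 were tested, and none was at 0 in any library. Of the 41, 19 fell and 3 rose, against 20.3% and 20.7% of all genes. The 19 lower calls became 8 with library totals, 8 with the abundance trend removed and 3 with the length-scaled trend removed. Lower calls among all genes in these settings were 2423 of 20478, 3347 of 20478 and 3057 of 20125. The summed level of 5 pyramidal neuron markers lay between 2747 and 3731 CPM in wild-type libraries and between 1934 and 2115 CPM in homozygous ones, 4 of the genes being lower and 1 higher (Rbfox3). Their median log2 fold change of -0.60 turned to 0.19 with the abundance trend removed and to 0.22 with the length-scaled trend removed, and Camk2a and Snap25 were then not called. Oligodendrocyte markers summed to 1232 to 1984 and 840 to 1047 CPM, with 4 of 5 lower. Interneuron markers summed to 291 to 340 and 213 to 254 CPM, with 3 of 5 lower. The sums of the 5 neuron markers, the oligodendrocyte markers and the interneuron markers were each lower in every homozygous library than in any wild-type library. The same held for Bok, Mcl1, Bcl2l1 and Bcl2l2, and the part of these cell types in those results was not tested. Astrocyte markers summed to 802 to 1034 and 618 to 813 CPM, microglia markers to 163 to 207 and 163 to 241, and endothelial markers to 129 to 167 and 121 to 146. Of the 5 astrocyte markers, Gfap (-0.53) and Slc1a3 (-0.68) were lower and 3 were not called. Neither Gfap nor Slc1a3 was called with either trend removed. Aldh1l1 was at 215 CPM in homozygous replicate 18 and at 43.1 to 71 CPM in the other homozygous libraries. Gfap, Slc1a3 and Aldh1l1 were named after their values were seen. Oligodendrocyte precursor markers summed to 146 to 234 CPM in wild-type libraries and reached 1551 CPM in homozygous replicate 16. The blood markers Hbb-b1 and Alas2 summed to 21.3 to 36.9 and 23.4 to 60.2 CPM, and were called in opposite directions. Hbb-b1 fell from 12.2 ± 6.26 to 3.27 ± 1.15 CPM (-1.95, adjusted p 0.00324 in edgeR), with overlapping groups. Alas2 rose from 17.9 ± 1.64 to 33.8 ± 15.1 CPM (0.91, adjusted p 0.0147 in edgeR). Choroid plexus markers, from tissue that can adhere to the hippocampus, ranged from 193 to 1190 CPM within wild-type and from 98.3 to 825 within homozygous libraries.

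**Figure D5:**
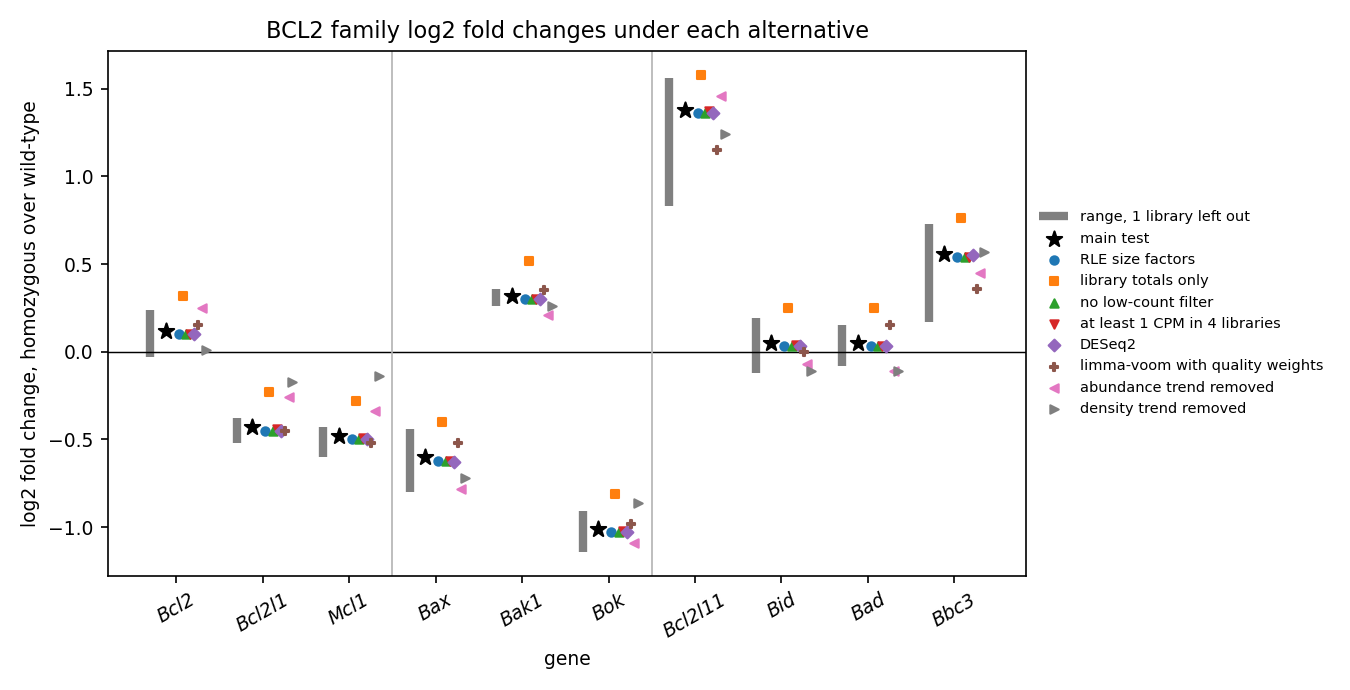
Log2 fold change of each member in the main test (star), under 8 alternatives (coloured symbols) and as the range over fits that leave out 1 library (grey bar). Bok and Bcl2l11 stay on their side of 0 throughout, with Bcl2l11 between 0.83 and 1.58, while Mcl1 and Bcl2l1 shrink to -0.14 and -0.17 when the length-scaled trend is removed.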

How the data were processed

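For the 8 libraries the authors deposited whole-number read counts by gene symbol in a single table. The submitters' processing notes name build mm10. Aligner, counter, strand setting and annotation: not given in the sources used here. Per the labels' protocols, RNA was depleted of ribosomal RNA and sequenced as pooled barcoded libraries on a SOLiD 4 instrument. The members and gene lists were chosen with earlier results of these data known. The labels give 4 separate animals per genotype and no batch.

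Genes were filtered with filterByExpr, scaled with TMM factors and tested with edgeR 4.0.16 (R 4.3.3), two-sided, adjusted over 20478 genes; called means an adjusted p under 0.05. The SE is the log2 fold change divided by the square root of its F statistic, and intervals are 95%. Exon lengths and positions came from GENCODE M21, which matched 97.6% of entries. Named genes were the 10 members, up to 4 called genes per list by smallest p, and the 3 genes most alike in log2 CPM (prior count 2, mean of at least 5 CPM) to each of 3 members; any other is said to be named after its values were seen or stands as a reference value. Alternatives were RLE factors, library totals, no filter, at least 1 CPM in 4 libraries, DESeq2 1.42.0, limma-voom 3.58.1, removal of a loess trend (span 0.3) on abundance or on counts per kilobase, and leaving out each library. Simulated counts with known changes were used to test the edgeR script.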

Additional observations from a re-analysis of the deposited data

Results flagged for a closer look

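Within each genotype, a library was looked at again when its gap to the nearest of the other 3 took up more of the group's range than Dixon's 95% critical value allows. In 22 groups, 3 libraries met this, where chance gives about 1 in 20 groups. Bcl2l11 in homozygous replicate 16 was 138 CPM against 40.4 to 56.2 CPM in the other homozygous libraries. Bax in homozygous replicate 18 was 9.66 CPM against 5.81 to 6.37 CPM. Bid in homozygous replicate 17 was 15 CPM against 16.9 to 17.1 CPM, a gap of few counts.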

How the results depend on the processing

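Of the 10 members, 4 were called in the reported test and 3 to 5 under all 16 alternatives. Bok and Bcl2l11 were called in the reported direction in all 16, Mcl1 in 13 and Bcl2l1 in 11. With library totals only, Bak1 was called higher (0.52, adjusted p 0.0144 in edgeR), so that 2 members were higher and 1 lower. With the abundance or length-scaled trend removed, Bax was called lower (-0.78 and -0.72, adjusted p 0.0288 and 0.043 in edgeR). Members near 0 changed sign without a call: Bid was -0.00 in limma-voom, -0.07 with the abundance trend and -0.11 with the length-scaled trend removed, and Bad was -0.11 with either trend removed. Leaving out 1 library gave Bid 0.19 to -0.12, Bad 0.15 to -0.08 and Bcl2 0.24 to -0.03. Pathway genes called numbered 47 in the reported test, 21 with the length-scaled trend removed (12 lower) and 33 with the abundance trend removed (21 lower), and 36 to 50 when 1 library was left out; library totals gave 23 higher and 23 lower against 12 and 35. Among all genes, 3057 of 20125 were lower with the length-scaled trend removed and 3347 of 20478 with the abundance trend removed. Library totals gave 6625 higher and 2423 lower among 20478. Ywhae was 0.14 with the length-scaled trend removed. The cause of these changes was not tested. The Bax to Bcl2 ratio difference was -0.0925 to -0.0539 over left-out libraries, against -0.077. No paired analysis was possible because the replicate numbers of the 2 genotypes differ. With 21 to 53 counts per library, depth limits Bax most.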
